A study of Mus musculus with 45 samples.

Results

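Expression of 9 genes, 8 of the complement system together with Apoe, was followed in mouse bone-marrow-derived dendritic cells, in 45 RNA-seq libraries. The genes encode the chains of the C1q recognition molecule (C1qa, C1qb and C1qc), the central component C3, the alternative pathway proteins factor B (Cfb) and properdin (Cfp), the anaphylatoxin receptors C3ar1 and C5ar1, and apolipoprotein E (Apoe). They were taken by symbol as a readout of macrophage-like cells in the culture. All 9 had a row among the 23420 genes in the deposited files, and all 9 were among the 10287 genes that passed the filter on low counts. The set was selected on symbols with earlier edgeR values of these libraries known, in which C1qa, C1qb and Apoe differed by genotype in medium and Apoe with 4µ8C. Genotype values in medium and with 4µ8C are therefore given as a description, with a standard error (SE) and no p.

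The mice were C57BL/6. KO cells carried Bat3 fl/fl with CD11c Cre, an allele deleted where the CD11c promoter is active, and the others were wild type (WT). Bag6, the current symbol of Bat3, encodes a chaperone of the cytosol. Cells had grown with 20 ng/ml GM-CSF and were re-plated from cultures of day 9, and live CD11c-high cells were sorted after 8 h of treatment. The 9 groups of 5 biological replicates were KO 4PBA and WT 4PBA, KO 4µ8C and WT 4µ8C, WT rapamycin, KO LPS and WT LPS, and KO medium and WT medium. Lipopolysaccharide (LPS), from bacterial walls, activates Toll-like receptor 4, rapamycin inhibits mTORC1, and 4µ8C blocks the RNase of the stress sensor IRE1. Phenylbutyrate (4PBA) eases protein misfolding and also blocks histone deacetylases. The labels name 1 treatment per group, do not state whether LPS was added with the inhibitors, and give no vehicle group. All groups shared the GM-CSF culture and the sort.

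Complement is a cascade of plasma proteins that tags microbes and dying cells. C1q binds immune complexes and cell debris and starts the classical route, and all routes meet at the cleavage of C3. Factor B supplies the protease of the alternative route's C3 convertase and properdin stabilises it, while the released fragments C3a and C5a signal through C3ar1 and C5ar1. Most complement proteins are made in the liver, whereas C1q and properdin come largely from myeloid cells. Apolipoprotein E carries cholesterol out of lipid-loaded macrophages, and its gene is a target of the liver X receptors.

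C1qb, C1qc and C1qa lie next to each other on chromosome 4 in the RefSeq gene order. An assembled C1q molecule holds all of the chains in equal number. The promoters of C1qb and C1qc are shown because in these libraries the RNA of C1qc did not follow that of C1qb. The C3 promoter is shown because C3 rose with LPS in WT cells. RefSeq promoter windows on GRCm38.p6, 250 bases before to 50 bases after the start, were held for 7 of the 9 genes, 3 of the windows for Apoe. Capitals mark matches on either strand to the NF-kB kappaB motif, GAGGAA (PU.1) or TTGCNNAA (C/EBP), and overlapping matches run together. C1qb was read from the minus strand of chr4:136886151-136886450, C1qc from the minus strand of chr4:136892865-136893164 and C3 from the minus strand of chr17:57228087-57228386.
C1qb: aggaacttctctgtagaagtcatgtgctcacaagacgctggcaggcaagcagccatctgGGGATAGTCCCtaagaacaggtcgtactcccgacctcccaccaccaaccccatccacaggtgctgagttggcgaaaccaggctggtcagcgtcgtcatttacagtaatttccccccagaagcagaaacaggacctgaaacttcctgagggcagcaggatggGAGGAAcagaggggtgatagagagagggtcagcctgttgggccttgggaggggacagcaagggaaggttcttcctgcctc
C1qc: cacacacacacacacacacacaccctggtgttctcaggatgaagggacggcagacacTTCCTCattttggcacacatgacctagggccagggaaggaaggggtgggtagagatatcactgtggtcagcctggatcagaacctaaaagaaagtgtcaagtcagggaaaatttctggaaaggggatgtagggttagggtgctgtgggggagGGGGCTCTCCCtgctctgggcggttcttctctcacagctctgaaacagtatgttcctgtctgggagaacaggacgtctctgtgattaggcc
C3: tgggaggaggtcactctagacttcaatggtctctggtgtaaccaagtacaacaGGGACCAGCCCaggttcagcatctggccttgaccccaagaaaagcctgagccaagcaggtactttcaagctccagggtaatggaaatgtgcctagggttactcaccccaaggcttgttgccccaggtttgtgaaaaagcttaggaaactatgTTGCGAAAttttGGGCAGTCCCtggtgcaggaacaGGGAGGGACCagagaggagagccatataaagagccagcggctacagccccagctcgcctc
The C1qb window had GAGGAA 30 bases before the start, and the C1qc window had its reverse complement 193 bases before the start. The C3 window alone among the 9 held TTGCNNAA, 45 bases before the start. Over 32851 mouse promoter windows of the same length, 50.79% held the kappaB motif, 28.28% held GAGGAA and 10.8% held TTGCNNAA, against 7, 5 and 1 of the 9 member windows. Of the other motifs searched, TGANTCA (AP-1, 7.81% of promoters) matched the C3ar1 window only. The interferon response element (3.44% of promoters), TGACGTCA (CRE, 1.79%) and the LXR direct repeat (0.02%) matched none of the 9 windows. A match describes letters in the window and not binding.

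Total expected counts ran from 1509219 to 4737736 per library, and the 9 genes had between 7 and 28164 counts in a library, the lowest for C1qc. Bag6, the targeted gene, had 3.30 to 14.9 CPM (counts scaled to library size) in the 20 KO libraries, against 9.26 to 19.6 CPM in the 25 WT libraries. It was not called by genotype under any treatment (log2 fold changes -0.91 in 4PBA, -0.40 in 4µ8C, -0.59 in LPS and -0.65 in medium; edgeR adjusted p = 0.072, 0.52, 0.18 and 0.072). KO replicate 4 had the highest Bag6 of its group under each treatment. Library codes read as a plate layout, which the labels do not state, put 17 libraries on the outer lines of the plate and 28 inside. WT medium and WT LPS were all outer, KO medium, KO 4PBA and WT 4PBA all inner, and the other groups mixed. All WT codes come before all KO codes in plate order, so that order and genotype cannot be told apart. In the mixed groups, with 7 outer and 13 inner libraries, 350 of 9557 genes tested differed by position, 343 of them lower in outer libraries.

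The level per transcript length, in TPM averaged over the 45 libraries, was highest for Cfb at 2207. Apoe (491 TPM) and Cfp (490.2 TPM) followed, then C3 (216 TPM) and C3ar1 (207 TPM). Among the C1q chains, C1qb averaged 166 TPM, C1qc 45.8 TPM and C1qa 37.0 TPM. C5ar1 was lowest at 28.7 TPM. The span between the highest and the lowest group mean in CPM was widest for Cfb, 6.91-fold, and narrowest for C3ar1, 1.96-fold. When the 9 groups were ordered by mean CPM, neighbouring groups overlapped in at least 1 library for 7 of the 9 genes throughout. The exceptions were C5ar1, where KO medium stood above WT 4PBA without overlap, and Cfb, where WT medium stood above WT rapamycin without overlap.

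**Figure D1:**
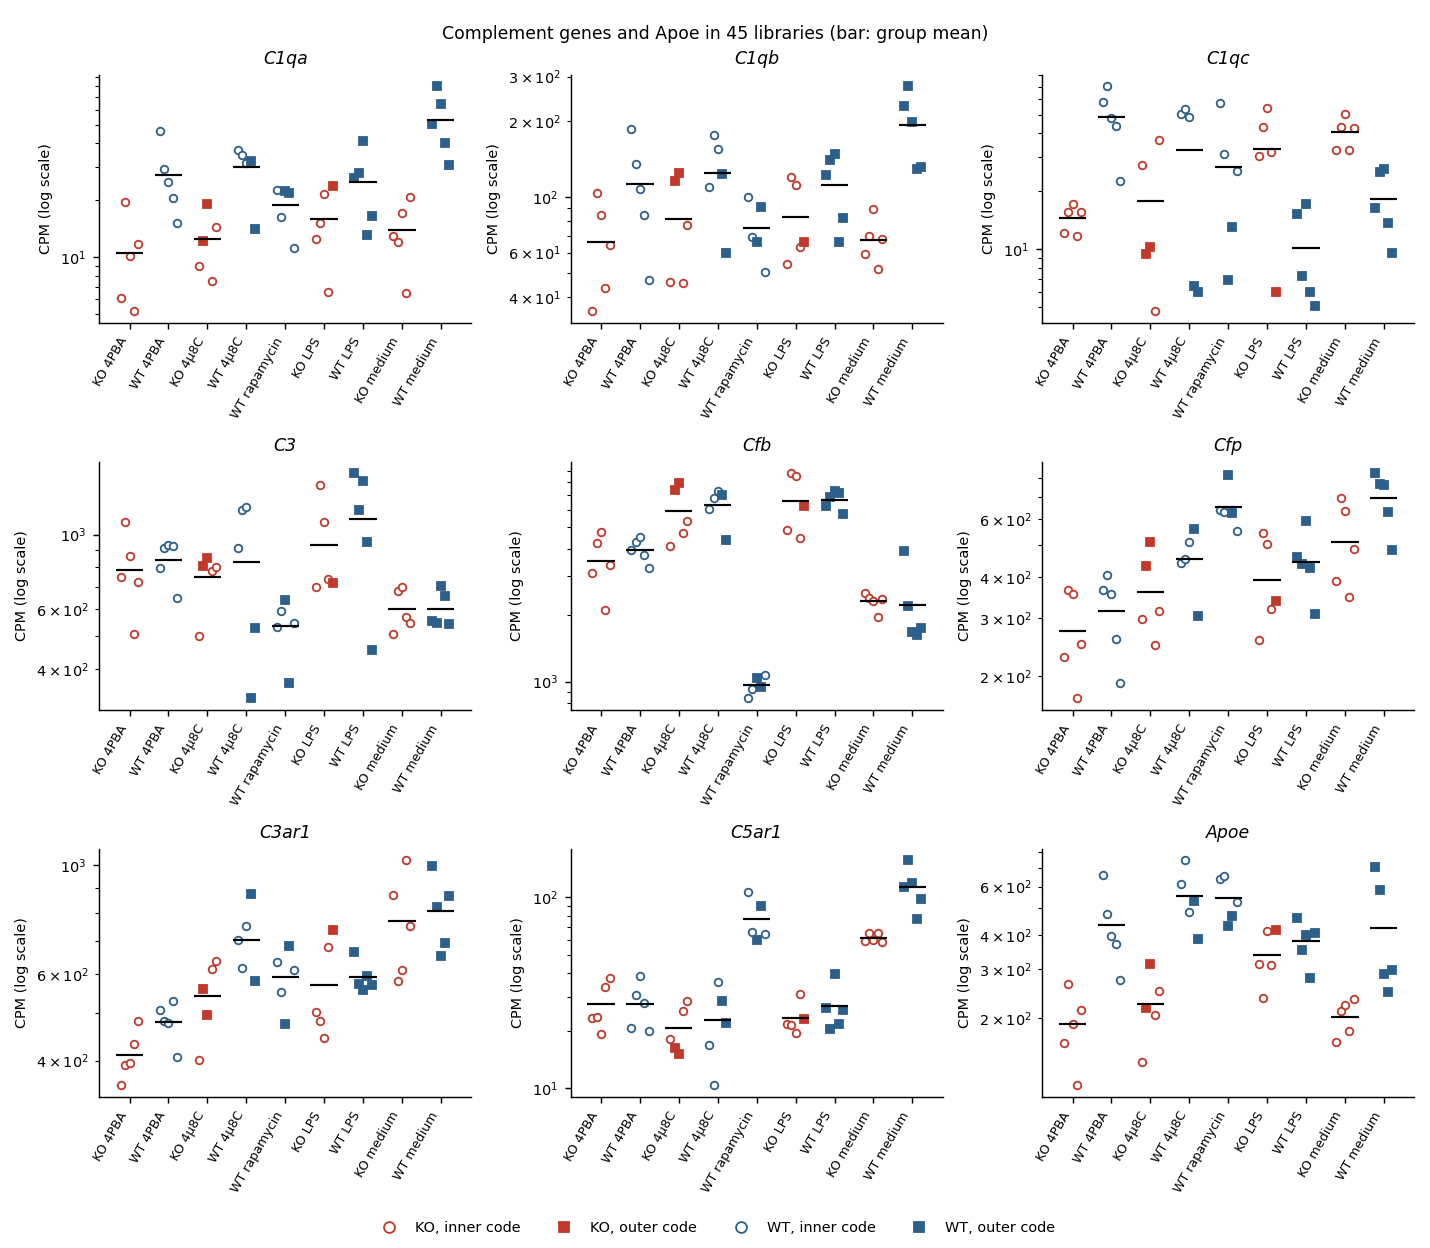
CPM of each gene (log axis) in all 45 libraries, by group, with a black bar at the group mean; red is KO and blue is WT, filled squares are outer and open circles inner library codes. Cfb is highest in the LPS and 4µ8C groups and lowest in WT rapamycin, C5ar1 is highest in both medium groups and WT rapamycin, and C1qc splits by code position inside the mixed groups.

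C1qa and C1qb, the chains that carry the recognition heads together with C1qc, were highest in WT cells left in medium. C1qa had 12.9, 12.02, 17.1, 6.48 and 20.9 CPM in the KO medium libraries, against 50.5, 80.5, 64.5, 40.3 and 30.8 CPM in the WT medium libraries. C1qb had 59.5, 69.7, 89.1, 51.6 and 67.7 CPM in KO medium, against 230.0, 276, 199, 129 and 132 CPM in WT medium. For both genes every KO medium library lay below every WT medium library. The log2 fold change of KO over WT was -1.94, SE 0.35 for C1qa and -1.51, SE 0.34 for C1qb. With code position as a term the values were -1.71 and -1.42, with larger SEs of 0.45 and 0.44. In bulk RNA, fewer cells of a type and less RNA per cell cannot be told apart. Of the 9 genes, 4 were called lower (C1qa, C1qb, C5ar1 and Apoe) and 0 higher in KO medium, beside 8.92% of all genes tested (6.61% higher and 2.31% lower). With the position term none of the 4 was called. Nothing is read from that count, because earlier results of this contrast were known.

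Under the other treatments the KO libraries overlapped the WT libraries for both chains. With 4PBA, C1qa averaged 10.53 ± 5.74 CPM in KO and 27.3 ± 12.01 CPM in WT cells (SD, n = 5 each), a log2 fold change of -1.36, SE 0.38, adjusted p = 0.096 by edgeR and -1.37, adjusted p = 0.04 by DESeq2. Without KO 4PBA replicate 2, the highest KO library, the value was -1.70 and the gene was called. With LPS, C1qa averaged 15.9 ± 6.96 CPM in KO and 24.9 ± 10.9 CPM in WT cells (log2 fold change -0.57, SE 0.37, adjusted p = 0.46). With 4µ8C the means were 12.4 ± 4.61 and 29.9 ± 9.03 CPM in KO and WT cells, a log2 fold change of -1.28, SE 0.38; without WT 4µ8C replicate 5, whose 14.2 CPM lay below the other WT 4µ8C libraries, it was -1.48. The C1qb log2 fold changes of KO over WT were -0.75 with 4PBA, -0.61 with 4µ8C and -0.42 with LPS, the 4PBA and LPS values at adjusted p = 0.43 and 0.59. With 4µ8C the C1qb value was -1.38, SE 0.45, in the inner libraries (n = 3 each) and 0.46, SE 0.42, in the outer libraries (n = 2 each). The C1qa values were -1.73, SE 0.47, and -0.46, SE 0.57. Over all libraries, then, both chains had a lower mean in KO than in WT cells under all 4 treatments, by differing amounts. The C1qb direction with 4µ8C depends on the libraries used. A treatment by genotype difference was not called for either chain (edgeR adjusted p 0.54 to 0.77).

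Within WT cells, C1qa had a lower mean under every treatment than in medium. These comparisons, and those of C1qb below, share the WT medium libraries with the genotype contrast known beforehand. Their adjusted p values are therefore not independent of it. WT LPS libraries had 26.2, 27.8, 41.0, 13.1 and 16.5 CPM of C1qa, against 50.5, 80.5, 64.5, 40.3 and 30.8 CPM in WT medium, with 4 of 5 LPS libraries below the whole medium range (log2 fold change -1.13, SE 0.34, adjusted p = 0.0076). Both of these groups had outer codes only. WT rapamycin libraries had 22.5, 16.3, 22.4, 21.8 and 11.2 CPM, all below WT medium (log2 fold change -1.49, SE 0.34, adjusted p = 0.00088). With 4PBA the log2 fold change was -0.98, SE 0.33, adjusted p = 0.016, and the call was lost without any one of WT medium replicate 2 and WT 4PBA replicate 5 (log2 fold change -0.80 to -0.78) and with the position term (-0.74, adjusted p = 0.21). With 4µ8C it was -0.84, SE 0.34, adjusted p = 0.045, and the call was lost without any one of WT medium replicates 1, 2 and 3 and WT 4µ8C replicates 2, 3, 4 and 5 (log2 fold change -0.91 to -0.65) and with the position term (-0.68, adjusted p = 0.19). In the outer libraries alone (n = 2 and 5), a fit chosen after the data were seen, the 4µ8C value was -1.33, adjusted p = 0.047.

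C1qb fell with rapamycin, to 99.5, 69.2, 66.1, 91.1 and 50.1 CPM, against 230.0, 276, 199, 129 and 132 CPM in WT medium, with no overlap (log2 fold change -1.35, SE 0.34, adjusted p = 0.0029). In the other WT comparisons with medium it was lower without a call in the fit of all libraries, with log2 fold changes of -0.79, SE 0.34, adjusted p = 0.055 for 4PBA, -0.63, SE 0.34, adjusted p = 0.14 for 4µ8C and -0.80, SE 0.34, adjusted p = 0.059 for LPS. In the outer libraries alone, a fit chosen after the data were seen, edgeR called it with LPS (-0.77, adjusted p = 0.025, n = 5 each). There it was also called with 4µ8C (-1.14, adjusted p = 0.036, n = 2 and 5). With replicate number as a block, in WT 4PBA against WT medium, where the numbers paired the libraries, the C1qb value was -0.84, adjusted p = 9.9e-05, and with the position term it was -0.70, adjusted p = 0.25. Its 4PBA value also passed without any one of WT medium replicates 4 and 5 and WT 4PBA replicate 1 (log2 fold change -1.05 to -0.91), and its LPS value without any one of WT medium replicates 4 and 5 and WT LPS replicate 3 (log2 fold change -0.92 to -0.91). In KO cells neither chain was called with any treatment. The C1qa log2 fold changes against KO medium were -0.39 with 4PBA, -0.18 with 4µ8C and 0.25 with LPS, and those of C1qb were -0.03, 0.27 and 0.29 (edgeR adjusted p 0.46 to 0.96). In KO 4PBA against KO LPS, C1qb was -0.32, SE 0.35, adjusted p = 0.54, and with the replicate block -0.31, adjusted p = 0.019. The LPS change differed between genotypes by 1.38, SE 0.51 for C1qa and 1.09, SE 0.49 for C1qb on the log2 scale, without a call (adjusted p = 0.54 and 0.63).

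C1qc, whose chain is part of the same protein, did not follow C1qa and C1qb. Its highest group means were 48.8 ± 17.9 CPM in WT 4PBA and 40.4 ± 7.58 CPM in KO medium, and its lowest was 10.1 ± 5.61 CPM in WT LPS (SD, n = 5 each). KO medium libraries had 32.8, 42.9, 50.6, 32.9 and 42.9 CPM, against 16.4, 25.1, 26.0, 13.6 and 9.55 CPM in WT medium, so that every KO library lay above every WT library, the opposite order to C1qa and C1qb (log2 fold change 1.17, SE 0.52). The KO libraries here had inner and the WT libraries outer codes, and with position as a term the value was -0.93, SE 0.47.

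The same split ran inside groups. In WT 4µ8C, C1qc had 6.48 and 5.97 CPM in the outer libraries, against 50.2, 53.2 and 48.5 CPM in the inner libraries. In WT rapamycin it had 6.91 and 13.1 CPM in outer libraries, against 57.5, 31.4 and 25.6 CPM in inner libraries. The only outer KO LPS library, replicate 5, had 5.97 CPM, against 30.6 to 54.2 CPM in the inner 4. In KO 4µ8C the outer libraries had 9.49 and 10.3 CPM, against 27.4, 4.76 and 36.7 CPM in the inner libraries, of which replicate 4 lay below the outer ones. In the other 3 groups the outer libraries all lay below the inner ones. Over the 4 mixed groups the log2 fold change of outer over inner was -2.11, SE 0.35 (edgeR adjusted p = 0.00084 over 9557 genes). The other 8 genes were not called by position, with log2 fold changes of -0.40 (C3) to 0.23 (C1qa).

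Ratios of TPM between chains of 1 library showed the split without reference to depth. C1qc over C1qb was 0.052 to 0.145 in the 17 outer libraries (median 0.091) and 0.105 to 0.644 in the 28 inner libraries (median 0.485). C1qa over C1qb was 0.103 to 0.354 in outer (median 0.231) and 0.102 to 0.329 in inner libraries (median 0.192), nearly the same range. Inner libraries were not uniform. KO 4PBA, all of it inner, had C1qc over C1qb of 0.35, 0.153, 0.204, 0.273 and 0.246, against 0.318, 0.529, 0.452, 0.521 and 0.49 in the inner WT 4PBA libraries. KO 4µ8C replicate 4, with the inner code G2, had 0.105, within the outer range. What sets the C1qc level was not tested.

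**Figure D2:**
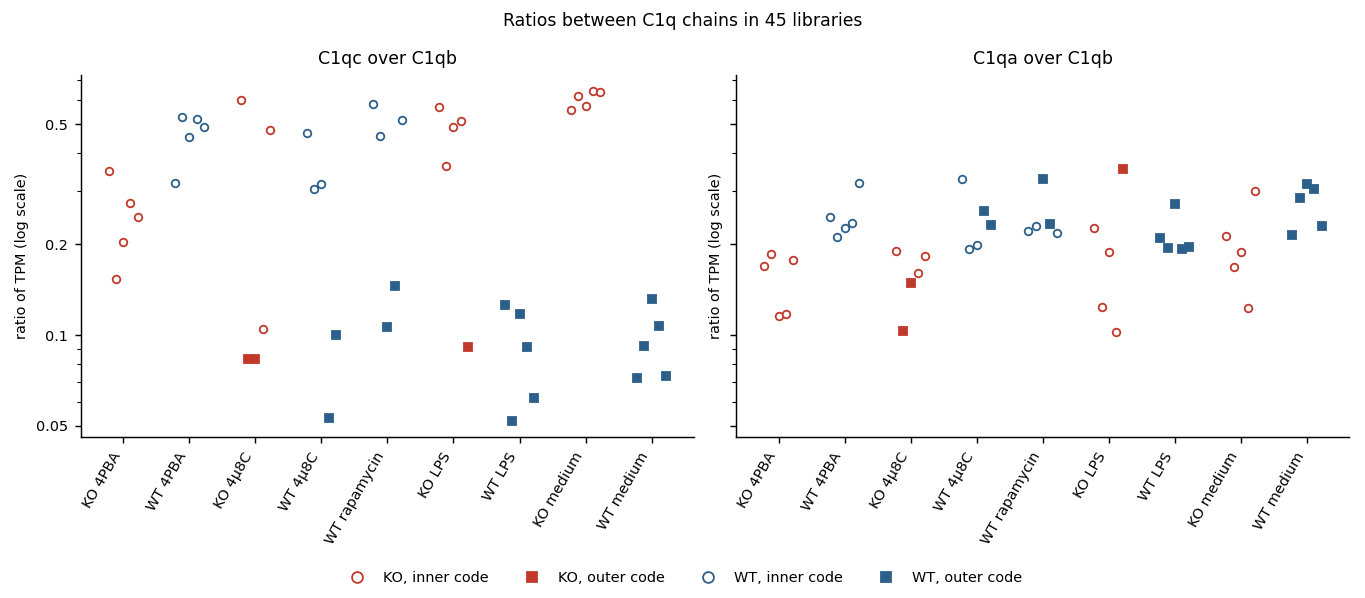
Ratio of TPM (log axis) of C1qc over C1qb and of C1qa over C1qb in each of the 45 libraries, by group; filled squares are outer and open circles inner library codes. On the left the outer libraries sit between 0.052 and 0.145 and most inner libraries above 0.3, and on the right both kinds share 1 range.

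The comparisons of C1qc between groups of unlike position moved with it. In WT 4PBA (inner) against WT medium (outer) C1qc rose, with 58.5, 70.6, 48.2, 43.9 and 22.6 CPM against 16.4, 25.1, 26.0, 13.6 and 9.55 CPM (log2 fold change 1.42, SE 0.52, adjusted p = 0.025), and with the position term the sign turned (-0.68, adjusted p = 0.31). The call was also lost without any one of WT medium replicates 4 and 5 and WT 4PBA replicate 2 (log2 fold change 1.25 to 1.33). WT 4PBA and WT rapamycin against WT LPS gave 2.35, SE 0.59, adjusted p = 0.0027 and 1.53, SE 0.60, adjusted p = 0.029, and with the position term 0.26, adjusted p = 0.79 and 0.00, adjusted p = 1. In the outer libraries alone, WT 4µ8C against WT medium gave -1.56, adjusted p = 0.036 (n = 2 and 5), where all libraries together gave 0.92, SE 0.54, adjusted p = 0.18. Between groups of the same position, C1qc fell in KO 4PBA against KO medium, with 12.2, 15.6, 17.2, 11.7 and 15.7 CPM against 32.8, 42.9, 50.6, 32.9 and 42.9 CPM and no overlap (log2 fold change -1.48, SE 0.54, adjusted p = 0.031). That call was lost without any one of KO medium replicate 3 and KO 4PBA replicates 1 and 4 (log2 fold change -1.43 to -1.38). It was also lost without all KO replicates 4 (-1.45, adjusted p = 0.073). With the position term the value was -1.48, adjusted p = 0.0014, and in the inner libraries alone -1.48, adjusted p = 0.0022. KO 4PBA against WT 4PBA, all inner, did not overlap either and gave -1.73, SE 0.54, adjusted p = 0.17. Fitted on the inner libraries alone it gave -1.73, adjusted p = 0.01, and with the position term -1.73, adjusted p = 0.0064. In the outer libraries alone, WT LPS against WT medium gave -0.89, adjusted p = 0.037, against -0.93, SE 0.61, adjusted p = 0.23 in the fit of all libraries. KO 4PBA against KO LPS gave -1.18, SE 0.55, adjusted p = 0.11, and with the position term -1.39, adjusted p = 0.0049. KO LPS (4 of 5 inner) against WT LPS (outer) gave 1.80, SE 0.60, adjusted p = 0.068, and with the position term -0.08, adjusted p = 0.97. Without the outer KO LPS replicate 5, which leaves inner KO against outer WT libraries, the value was 2.09 and called.

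C3, the protein at which all complement routes meet, and factor B rose with LPS in WT cells. WT LPS libraries had 1524, 1183, 1439.7, 948 and 453 CPM of C3, against 555, 546, 705, 657 and 544 CPM in WT medium; 4 LPS libraries lay above the medium range and replicate 5 below it (log2 fold change 0.88, SE 0.27, adjusted p = 0.0078). In KO cells all 5 LPS libraries, at 700.4, 1399, 1086, 738 and 719 CPM, lay above all 5 medium libraries, at 506, 682, 698, 569 and 547 CPM. That difference was 0.63, SE 0.27, adjusted p = 0.063 in the fit of all libraries and 0.59, adjusted p = 0.0002 with replicate number as a block, which paired these groups. It also passed without KO LPS replicate 1 (log2 fold change 0.71), with the position term (0.70, adjusted p = 0.034), in the inner libraries alone (0.71, adjusted p = 0.0051) and in DESeq2 (0.65, adjusted p = 0.032). Blocked values of C3 passed too in WT 4PBA (0.50, adjusted p = 0.00039), KO 4PBA (0.37, adjusted p = 0.0037) and KO 4µ8C (0.30, adjusted p = 0.028) against medium, where the unblocked values were 0.49, 0.39 and 0.32 (adjusted p = 0.14, 0.27 and 0.38). WT 4PBA and WT medium differ in position, and with the position term that value was 0.10, adjusted p = 0.87. C3 with 4µ8C in WT cells was 0.47, SE 0.27, adjusted p = 0.16, and was called without WT 4µ8C replicate 4 (log2 fold change 0.67). With the position term it was 0.17, adjusted p = 0.7, and in the outer libraries alone, 2 and 5, it was -0.50, adjusted p = 0.33, so that its direction depends on the libraries used. WT rapamycin averaged 535 ± 105 CPM, lower than WT LPS at 1109.5 ± 431 CPM (log2 fold change -1.05, SE 0.27, adjusted p = 0.001) and not called against medium (-0.17, SE 0.27, adjusted p = 0.71).

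Cfb was the most abundant of the 9 and responded in every comparison with medium. WT LPS libraries had 6265, 6860.1, 7325, 7120.0 and 5753 CPM, against 3908, 2193, 1676, 1620.0 and 1753 CPM in WT medium, without overlap (log2 fold change 1.58, SE 0.21, adjusted p = 4.2e-08). KO LPS libraries had 4876, 8822, 8523, 4492 and 6213 CPM, against 2521, 2386, 2327, 1966 and 2359.7 CPM in KO medium, again without overlap (log2 fold change 1.51, SE 0.21, adjusted p = 1.4e-07). The genotypes differed in this response by -0.07, SE 0.29 (adjusted p = 0.97). With 4µ8C the log2 fold change was 1.35, SE 0.21, adjusted p = 1.4e-06 in KO and 1.5, SE 0.21, adjusted p = 1.2e-07 in WT cells. With 4PBA it was 0.61, SE 0.20, adjusted p = 0.018 in KO and 0.82, SE 0.21, adjusted p = 0.001 in WT cells, and the KO call was lost without any one of KO 4PBA replicates 2 and 3 (log2 fold change 0.50 to 0.53). Rapamycin was the only treatment under which Cfb fell: WT rapamycin libraries had 839, 927, 1035, 945 and 1073 CPM, all below the lowest WT medium library (log2 fold change -1.21, SE 0.21, adjusted p = 1.4e-05). WT medium replicate 1, at 3908 CPM, stood above the other WT medium libraries, and without it the rapamycin value was -0.91 and still called.

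Cfb was also lower with 4PBA than with LPS, at a log2 fold change of -0.90, SE 0.21, adjusted p = 0.001 in KO and -0.76, SE 0.21, adjusted p = 0.0046 in WT cells. WT 4PBA and WT LPS differ in position, and with the position term the WT call was lost (-0.62, adjusted p = 0.1). With rapamycin against LPS in WT cells it was -2.79, SE 0.22, adjusted p = 5.9e-15. With 4µ8C against LPS no difference was called (-0.16, SE 0.20, adjusted p = 0.92 in KO and -0.08, SE 0.20, adjusted p = 0.96 in WT cells). Between genotypes Cfb was within 0.16 on the log2 scale under all 4 treatments, with an SE of 0.20 in medium.

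Cfp, which encodes properdin, fell with 4PBA in both genotypes. WT 4PBA libraries had 365, 406, 356, 259 and 191 CPM, against 827, 763, 759, 628 and 484 CPM in WT medium, without overlap (log2 fold change -1.14, SE 0.23, adjusted p = 0.00012). KO 4PBA libraries averaged 274 ± 83.3 CPM and KO medium libraries 511 ± 151 CPM (log2 fold change -0.90, SE 0.23, adjusted p = 0.0025). With LPS in WT cells it was -0.64, SE 0.23, adjusted p = 0.025, a call lost without any one of WT medium replicates 1, 2 and 3 and WT LPS replicate 5 (log2 fold change -0.61 to -0.53), and with 4µ8C -0.61, SE 0.23, adjusted p = 0.032, a call lost without any one of WT medium replicates 1, 2 and 3 and WT 4µ8C replicates 1, 2 and 5 (log2 fold change -0.61 to -0.50) and with the position term (-0.49, adjusted p = 0.14). In KO cells the LPS and 4µ8C values were -0.38, SE 0.23, adjusted p = 0.21 and -0.50, SE 0.23, adjusted p = 0.092, and with the replicate block -0.38, adjusted p = 0.0037 and -0.50, adjusted p = 0.00066. Rapamycin left Cfp at 651 ± 96.9 CPM, against 692 ± 137 CPM in WT medium (log2 fold change -0.09, SE 0.23, adjusted p = 0.84). Against LPS, Cfp was higher with rapamycin (0.55, SE 0.23, adjusted p = 0.04), a call that was lost without any one of WT LPS replicates 1, 2, 4 and 5 and WT rapamycin replicates 1, 2, 3 and 4 (log2 fold change 0.44 to 0.56). The blocked 4PBA against LPS values were -0.49, adjusted p = 0.00011 in KO and -0.50, adjusted p = 1.2e-05 in WT cells, where the unblocked ones were not called (adjusted p = 0.099 and 0.11); with the position term the WT value was -0.31, adjusted p = 0.53. KO over WT was -0.20 with 4PBA, -0.33 with 4µ8C, -0.18 with LPS and -0.44 in medium.

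C5ar1, the receptor for C5a, had the largest falls of the 9 genes against medium with LPS and 4µ8C in both genotypes and with 4PBA in WT cells. In KO 4PBA C1qc fell further (-1.48), and with rapamycin C1qa (-1.49), C1qb (-1.35) and Cfb (-1.21) did. WT LPS libraries had 26.2, 20.5, 39.9, 21.7 and 25.8 CPM, against 114, 157, 118, 77.2 and 98.6 CPM in WT medium, without overlap (log2 fold change -2.10, SE 0.23, adjusted p = 5.6e-10). With 4PBA and 4µ8C in WT cells the means were 27.7 ± 7.80 and 22.8 ± 9.96 CPM (log2 fold changes -2.05, SE 0.23, adjusted p = 6.1e-10 and -2.36, SE 0.24, adjusted p = 6.9e-11). KO medium libraries had 59.5, 65.3, 59.5, 64.8 and 58.4 CPM of C5ar1, all below the WT medium libraries (KO over WT -0.88, SE 0.21, and -1.0, SE 0.28, with the position term). The KO treated means were 27.5 ± 7.79 CPM with 4PBA, 20.7 ± 5.98 CPM with 4µ8C and 23.3 ± 4.50 CPM with LPS, close to those of WT cells. The log2 fold changes against KO medium were -1.14, SE 0.22, adjusted p = 9e-05, -1.56, SE 0.23, adjusted p = 7.7e-07 and -1.40, SE 0.23, adjusted p = 4.4e-06, in that order. The KO change minus the WT change was 0.91 with 4PBA, 0.80 with 4µ8C and 0.69 with LPS, none of which was called (adjusted p = 0.11, 0.31 and 0.66); the 4PBA difference was called without any one of WT medium replicate 4 and WT 4PBA replicate 3 (log2 fold change 1.02 to 1.06). Rapamycin left C5ar1 at 77.3 ± 20.4 CPM (against medium -0.54, SE 0.21, adjusted p = 0.053, called without any one of WT medium replicate 4 and WT rapamycin replicate 1 (log2 fold change -0.69 to -0.65)), well above WT LPS (1.56, SE 0.23, adjusted p = 1.9e-07, all 5 libraries above).

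C3ar1, the receptor for C3a, fell in 6 of the 7 comparisons with medium, by smaller amounts. WT 4PBA libraries had 507, 481, 476, 529 and 408 CPM, against 996, 823, 653, 694 and 867 CPM in WT medium, without overlap (log2 fold change -0.75, SE 0.15, adjusted p = 4.8e-05). KO 4PBA and KO medium did not overlap either (log2 fold change -0.90, SE 0.15, adjusted p = 4e-06). With LPS the log2 fold change was -0.43, SE 0.15, adjusted p = 0.019 in KO and -0.45, SE 0.15, adjusted p = 0.013 in WT cells, with calls lost without any one of KO medium replicate 4 and KO LPS replicates 1, 2 and 3 (log2 fold change -0.39 to -0.31) and without WT medium replicate 1 (log2 fold change -0.36). With 4µ8C it was -0.50, SE 0.15, adjusted p = 0.0066 in KO cells, lost without KO medium replicate 4 (log2 fold change -0.38), and -0.20, SE 0.15, adjusted p = 0.3 in WT cells, not called. With rapamycin it was -0.45, SE 0.15, adjusted p = 0.021, lost without any one of WT medium replicate 1 and WT rapamycin replicate 3 (log2 fold change -0.38 to -0.36) and with the position term (-0.40, adjusted p = 0.08). Against LPS, 4PBA gave -0.47, SE 0.15, adjusted p = 0.016 in KO cells, lost without any one of KO LPS replicates 4 and 5 (log2 fold change -0.40 to -0.36). In WT cells it gave -0.30, SE 0.15, adjusted p = 0.12 with no overlap between the groups, -0.29, adjusted p = 0.00045 with the replicate block, and -0.22, adjusted p = 0.47 with the position term. Without all KO replicates 4 the KO calls with LPS and 4µ8C against medium and with 4PBA against LPS were lost (-0.35, adjusted p = 0.088, -0.41, adjusted p = 0.051 and -0.42, adjusted p = 0.058). KO over WT lay between -0.38 and -0.06 under the 4 treatments.

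**Figure D3:**
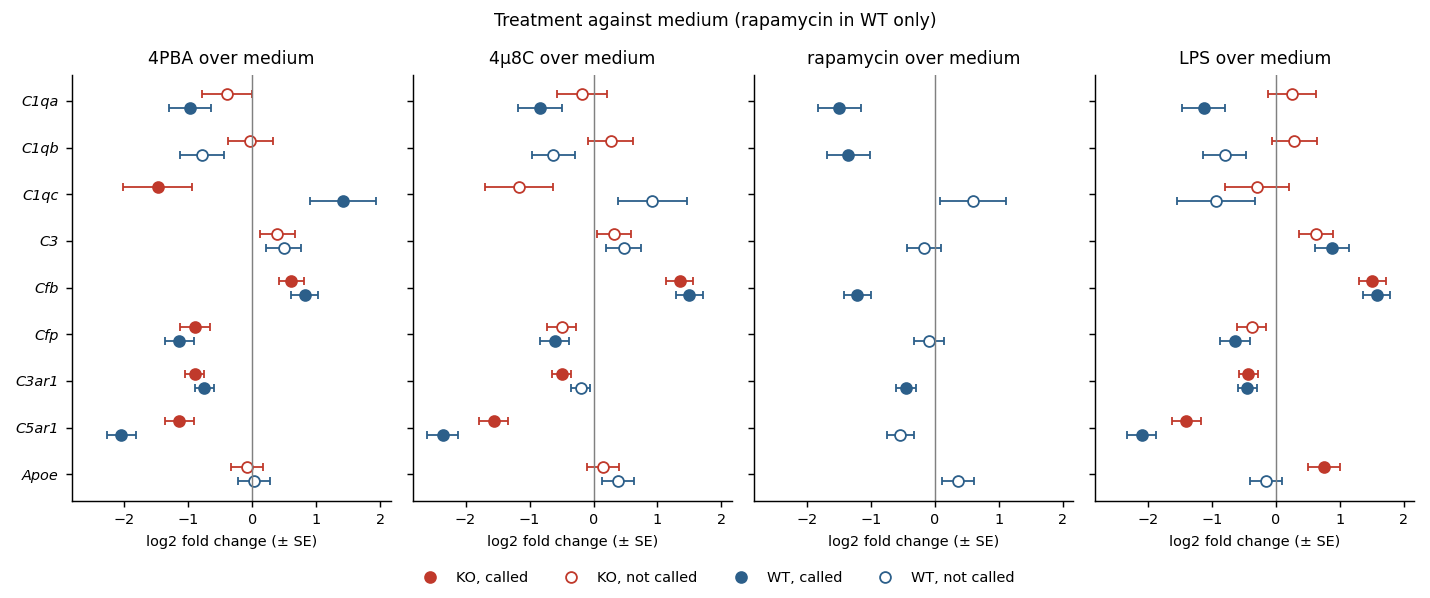
Log2 fold change against medium (± SE) of each gene in KO (red) and WT (blue) cells for 4PBA, 4µ8C, rapamycin (WT only) and LPS; filled points had an edgeR adjusted p under 0.05. Cfb lies to the right of 0 in all but rapamycin, C5ar1 and C3ar1 lie to the left, and C1qa is filled in WT cells only.

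Apoe, the only member outside complement, was lower in KO cells in 3 of 4 treatments. KO medium libraries had 163, 211, 223, 178 and 233 CPM, against 705, 584, 289.8, 249 and 298 CPM in WT medium, without overlap but with WT replicates 1 and 2 far above the other WT libraries (log2 fold change -1.08, SE 0.25; -1.11, SE 0.32, with the position term). KO 4µ8C libraries had 138, 217, 314, 206 and 250.1 CPM, against 616, 751, 484, 532 and 389 CPM in WT 4µ8C, without overlap (log2 fold change -1.30, SE 0.26). It was -1.64, SE 0.29, in the inner libraries (n = 3 each) and -0.76, SE 0.39, in the outer libraries (n = 2 each). By edgeR 1 of the 9 genes was called lower and 0 higher in KO 4µ8C, beside 0.953% of all genes tested (0.428% higher and 0.525% lower), a count known from earlier results.

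In 4PBA, where all libraries had inner codes, KO libraries had 162, 266, 191, 113 and 213 CPM of Apoe, against 659, 475, 396, 371 and 275 CPM in WT 4PBA. Every KO library lay below every WT library, and Apoe was lower in KO cells by a log2 fold change of -1.20, SE 0.25, adjusted p = 0.013. Replicate numbers paired the 4PBA with the medium libraries (r 0.37 to 0.65 in KO and 0.21 to 0.62 in WT cells). This adjusted p is therefore not independent of the medium contrast known beforehand for Apoe. The same holds for C1qa and C1qb with 4PBA. Apoe was the only member called there by edgeR in the fit of all libraries without a position term. That was 1 of 9 beside 0.496% of all genes tested (0.185% higher and 0.311% lower). DESeq2 called C1qa as well (-1.37, adjusted p = 0.04). The edgeR fit with the position term called C1qc too (-1.73, adjusted p = 0.0064), as did the fit of inner libraries alone. The Apoe call was lost without any one of WT 4PBA replicate 1 and KO 4PBA replicates 1 and 4 (log2 fold change -1.15 to -1.0), and without all KO replicates 4 (-1.06, adjusted p = 0.089). With LPS the genotypes overlapped: KO LPS libraries had 315, 236, 412, 312 and 418 CPM, against 463, 352, 401, 279 and 407 CPM in WT LPS (log2 fold change -0.16, SE 0.25, adjusted p = 0.82). With LPS 0 of the 9 genes were called by genotype in edgeR, beside 6.06% of all genes tested (4.31% higher and 1.75% lower); 1 had an unadjusted p under 0.05 and 1 was called by DESeq2.

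**Figure D4:**
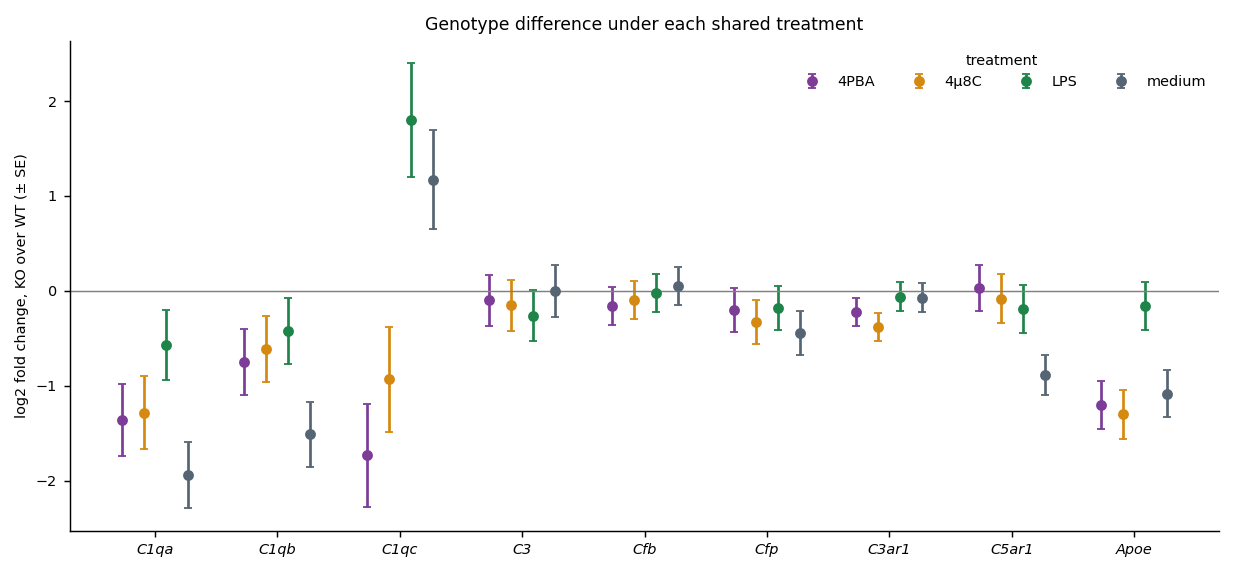
Log2 fold change of KO over WT (± SE) for each gene with 4PBA (purple), 4µ8C (orange), LPS (green) and in medium (grey). Apoe lies near -1.2 in all but LPS, C1qa and C1qb lie lowest in medium, and C1qc lies above 0 in LPS and medium and below 0 with 4PBA and 4µ8C.

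Within KO cells Apoe rose with LPS, all 5 KO LPS libraries lying above all 5 KO medium libraries (log2 fold change 0.75, SE 0.25, adjusted p = 0.019). The call was lost without any one of KO LPS replicates 3 and 5 (log2 fold change 0.66 to 0.67). KO medium is also part of the genotype contrast known beforehand for Apoe, so that this adjusted p is not independent of it. In WT cells Apoe was not called with LPS (-0.16, SE 0.25, adjusted p = 0.64), and the difference between these changes was 0.91, SE 0.35 (adjusted p = 0.57) and was not called. Apoe in KO cells was lower with 4PBA than with LPS (-0.84, SE 0.25, adjusted p = 0.012), and with the replicate block that value was -0.84, adjusted p = 0.077. Without all KO replicates 4, which had the highest Bag6, it was -0.74, adjusted p = 0.065. Against medium, Apoe was at -0.09 and 0.15 with 4PBA and 4µ8C in KO cells and at 0.03, 0.38 and 0.36 with 4PBA, 4µ8C and rapamycin in WT cells, none called (adjusted p 0.23 to 0.93). Without WT medium replicate 1 the WT 4µ8C value was 0.64 and called.

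Counted over the 9 genes, LPS against medium called 2 higher and 2 lower in KO and 2 higher and 4 lower in WT cells, beside 35.2% of all genes tested (16.7% higher and 18.5% lower) and 40.1% of all genes tested (18.8% higher and 21.3% lower). 4µ8C called 1 higher and 2 lower in KO and 1 higher and 3 lower in WT cells, beside 32.7% of all genes tested (16.1% higher and 16.6% lower) and 40.1% of all genes tested (20% higher and 20.1% lower). 4PBA called 1 higher and 4 lower in KO and 2 higher and 4 lower in WT cells, beside 33.2% of all genes tested (17% higher and 16.2% lower) and 43.7% of all genes tested (22.4% higher and 21.3% lower). Rapamycin called 0 higher and 4 lower, beside 23.2% of all genes tested (9.68% higher and 13.5% lower). These shares of members, 3 to 6 of 9, lie near or somewhat above the background and do not set the genes apart. The median log2 fold change of the 9 against medium ran from -0.75 to 0.25 over these comparisons, while that of all genes ran from -0.08 to -0.01. Against LPS, 4µ8C called 0 of 9 in either genotype in edgeR and in DESeq2 (unadjusted p under 0.05 for 1 in KO and 2 in WT cells), beside 0.0292% of all genes tested (0% higher and 0.0292% lower) and 0.204% of all genes tested (0.204% higher and 0% lower). 4PBA against LPS called 0 higher and 3 lower in KO and 1 higher and 1 lower in WT cells, beside 24.4% of all genes tested (12.9% higher and 11.5% lower) and 27% of all genes tested (15% higher and 12% lower). Rapamycin against LPS called 3 higher and 2 lower, beside 56.3% of all genes tested (29.6% higher and 26.7% lower).

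Of the differences in response between genotypes, C1qc with 4PBA was the only one called among the 9 genes (-2.90, SE 0.75, adjusted p = 0.012, 1 of 9 beside 4.73% of all genes tested (0.311% higher and 4.42% lower)). With the position term it was -0.80, adjusted p = 0.92. For LPS and 4µ8C, 0 of 9 were called in edgeR and in DESeq2, with 4 and 2 at an unadjusted p under 0.05, beside 0.00972% of all genes tested (0% higher and 0.00972% lower) and 1.79% of all genes tested (0.0875% higher and 1.7% lower).

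The other complement genes were mostly silent. Of the listed classical and lectin components, 4 of 15 with a row passed the filter (C1ra, C1rl, C1s and C2), of the terminal components 0 of 8 and of the regulators 2 of 14 (Cr1l and Clu). C1rl, a C1r-like protease, was the only classical component called against medium, higher with 4PBA in WT cells (log2 fold change 0.71, SE 0.18, adjusted p = 0.0011) and with LPS in KO cells (log2 fold change 0.49, SE 0.18, adjusted p = 0.029). Clu, the regulator clusterin, rose with 4µ8C in WT cells (log2 fold change 0.82, SE 0.32, adjusted p = 0.04). Of the other receptors, 8 of 10 were tested. With LPS 6 of 8 fell in KO and 6 in WT cells, where 18.5% and 21.3% of all genes were called lower. With 4µ8C 5 and 8 fell, beside 16.6% and 20.1%, and with 4PBA 6 and 7, beside 16.2% and 21.3%. None of the 8 rose in these comparisons. Their median log2 fold changes were -0.66 and -0.81 with LPS in KO and WT cells, against -0.08 and -0.07 over all genes. Cd93, a surface lectin once taken for a C1q receptor, had log2 fold changes of -0.72 and -1.79 with LPS in KO and WT cells, and Itgam, a chain of complement receptor 3, -0.60 and -0.65. With rapamycin 2 rose (Cd93 0.77, C1qbp 0.76) and 1 fell (Calr -0.86). Between genotypes, 0 of 8 were called in medium, LPS or 4µ8C in edgeR or DESeq2 (unadjusted p under 0.05 for 2, 0 and 2), and 1 of 8 in 4PBA, C1qbp, higher in KO (log2 fold change 0.94, SE 0.23, adjusted p = 0.029).

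Of 21 genes listed around Apoe (lipoproteins, receptors, liver X receptors and cholesterol export), 16 were tested. In KO against WT medium 3 were lower and 0 higher, where 2.31% of all genes were lower and 6.61% higher. They were the cholesterol exporter Abcg1 (log2 fold change -0.80, SE 0.14, adjusted p = 3.2e-05), the signalling adaptor Tyrobp (log2 fold change -0.58, SE 0.16, adjusted p = 0.0092) and the RNA editor Apobec1 (log2 fold change -0.36, SE 0.11, adjusted p = 0.024). Code position differs between the genotypes in medium and mostly with LPS, and the genes of this list are given without the position term. Tyrobp was also lower in KO with 4µ8C (log2 fold change -0.59, SE 0.16, adjusted p = 0.048), the Apoe receptor Lrp8 was lower in KO with LPS (log2 fold change -0.83, SE 0.26, adjusted p = 0.047), and 0 of 16 were called with 4PBA in edgeR or DESeq2 (4 at an unadjusted p under 0.05). In WT cells, LPS raised 3 and lowered 6, beside 40.1% of all genes called, with Nr1h3, the liver X receptor alpha, at 0.98 and the lipase Lpl at -0.87. In KO cells LPS raised 2 and lowered 1, beside 35.2%, with Nr1h3 at 1.11 and Lpl at -0.55. 4PBA lowered 4 in KO and 5 in WT cells and raised 1 in KO and 1 in WT cells, beside 33.2% and 43.7% called, and Abcg1 was at -0.71 and -1.03.

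The cells carried markers of macrophages, dendritic cells and monocytes. Of 24 listed macrophage markers other than the 9 genes, 22 had a row and 18 were tested, among them Lyz2 at 10865 to 27879 TPM, Csf1r at 65.6 to 844 TPM and Emr1, which encodes F4/80, at 72.6 to 410.2 TPM over the 45 libraries. Of the same list, Timd4, Vsig4 and Cd163 did not exceed 0.48 TPM and Folr2 did not exceed 2.42 TPM in any library. Siglec1 ran from 16.4 to 62.5 TPM, Marco from 11.4 to 143 TPM, Sepp1 from 36.35 to 125 TPM and Mertk from 2.48 to 17.1 TPM. Among dendritic cell markers H2-Ab1 ran from 992 to 2876 TPM and Itgax, which encodes CD11c, from 9.09 to 127 TPM, whereas Flt3, Clec9a and Cd209a did not exceed 2.11 TPM. Among monocyte markers Ly6c2 ran from 3036 to 6491 TPM and Chi3l3 from 584 to 1989 TPM, whereas Cx3cr1, Treml4 and Ace did not exceed 6.19 TPM. The summed macrophage list was 19838 to 31620.0 TPM in KO medium and 24340.3 to 33862 TPM in WT medium, most of it Lyz2. In KO against WT medium, where C1qa, C1qb and Apoe were lower, 0 of the 18 tested macrophage markers were called in edgeR or DESeq2, with 4 lower and 0 higher at an unadjusted p under 0.05 and a median log2 fold change of -0.21 (-0.03 over all genes). With 4µ8C also 0 of 18 were called by both tools (4 lower at an unadjusted p under 0.05), and with 4PBA 1, Siglec1 (log2 fold change -0.77, SE 0.16, adjusted p = 0.011). With LPS 1 of 18 was called, Fcgr3, higher in KO (log2 fold change 0.41, SE 0.12, adjusted p = 0.025), between mostly inner KO and all outer WT libraries. The part of cell mixture in the differences of the 9 genes was not tested.

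Under treatment, macrophage markers were called in both directions, with more lower than higher in WT cells given LPS, 4PBA or rapamycin. LPS raised 5 and lowered 4 of 18 in KO cells, beside 35.2% of all genes called (16.7% higher and 18.5% lower). In WT cells LPS raised 2 and lowered 6, beside 40.1% called (18.8% higher and 21.3% lower). The LPS co-receptor Cd14 was at 2.12 and 1.67 (log2 fold change, KO and WT). 4PBA raised 2 and lowered 11 in WT cells, beside 43.7% called (22.4% higher and 21.3% lower), with the scavenger receptor Marco at -2.15 and Cd14 at 2.04. WT 4PBA had inner and WT medium outer codes, and these markers are given without the position term. Rapamycin raised 2 and lowered 8, beside 23.2% called (9.68% higher and 13.5% lower), with the Fc receptor Fcgr1 at -1.37 and Siglec1 at -0.96. Markers of other cells were few among the genotype calls. Of 16 dendritic cell markers tested, 1 was called in KO against WT medium, the transcription factor Zbtb46 (log2 fold change 1.43, SE 0.45, adjusted p = 0.035). Of 9 monocyte markers, Ccr2, a chemokine receptor, was lower in KO medium (log2 fold change -1.05, SE 0.32, adjusted p = 0.029) and in KO LPS (log2 fold change -1.20, SE 0.37, adjusted p = 0.042), and Cx3cr1 was higher in KO LPS (log2 fold change 2.02, SE 0.53, adjusted p = 0.013). Of 5 neutrophil markers, Cxcr2 was lower in KO medium (log2 fold change -1.20, SE 0.22, adjusted p = 9.8e-05). These 4 genes were named after their values were seen. Code position differs between the genotypes in medium and mostly with LPS, and these 4 genes are given without the position term. With that term the genotype calls over all genes were 68 in medium and 161 with LPS, against 918 and 623 without it. Of the listed lymphocyte and mast cell markers 0 passed the filter on low counts, and of the erythroid and stromal markers 1 did.

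Likeness was described by Pearson's r of log2 CPM over the 45 libraries, and by r of the deviations from group means, among 6535 genes averaging 10 CPM or more. The libraries share treatments, genotype and code position, so r is a description and has no p. C1qa and C1qb were each other's nearest gene, at 0.88 (within groups 0.80). C1qb was next nearest to the lectin Mgl2 at 0.85 (within groups 0.80), the tetraspanin Cd63 at 0.83 (within groups 0.75) and the phospholipase D family member Pld4 at 0.82 (within groups 0.80). C1qc had r of 0.16 (within groups 0.31) with C1qa and 0.20 (within groups 0.46) with C1qb, and its nearest genes were Sumf1 at 0.81 (within groups 0.76), Adssl1 at 0.79 (within groups 0.77), Rnf187 at 0.77 (within groups 0.76), Atg3 at 0.76 (within groups 0.73) and Sfpi1, which encodes PU.1, at 0.76 (within groups 0.75). C3 was nearest to the receptor kinase Axl at 0.87 (within groups 0.88). Cfb was nearest to the chaperone Hsp90ab1 at 0.98 (within groups 0.88), then to Tapbp, Apobec3, the chemokine Ccl4 and Dnaja1, all at 0.96. Cfp was nearest to the mitochondrial carrier Ucp2 at 0.91 (within groups 0.91) and to Tyrobp at 0.90 (within groups 0.82). C5ar1 was nearest to Nfam1 at 0.91 (within groups 0.53), C3ar1 to Slc43a2 at 0.77 (within groups 0.34) and Apoe to progranulin, Grn, at 0.80 (within groups 0.53).

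Among the members themselves, r over all libraries and r within groups differed most for Cfb and Cfp. Cfb and Cfp had r of -0.29 (within groups 0.75), C3ar1 and Cfp 0.44 (within groups -0.22), Cfb and C5ar1 -0.77 (within groups -0.15), and C5ar1 and Cfp 0.57 (within groups -0.03). C1qb and Cfp had 0.62 (within groups 0.82), and C1qa and Apoe 0.69 (within groups 0.63). C3ar1 and C5ar1, both anaphylatoxin receptors, had 0.53 (within groups 0.43). Within groups, then, libraries with more C1qb also had more Cfp, Cfb and Apoe, with r of 0.82, 0.66 and 0.65, while C3ar1 and C5ar1 had r with C1qb of 0.04 and 0.03.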

How the data were processed

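Gene-level values came from the deposited RSEM results, 1 file per library. The authors deposited expected counts, of which 9.09% were not whole numbers, and TPM, scaled by RSEM per library, per the file headers; bcl2fastq and RSEM are named without versions in the submitters' processing notes. The sources used here give no genome build, aligner or annotation. Expected counts were rounded, scaled by TMM, filtered with filterByExpr and tested two-sided with edgeR 4.0.16 (robust quasi-likelihood F test; limma 3.58.1, R 4.3.3) in 1 fit of all 45 libraries with 36 residual degrees of freedom. A gene with a Benjamini-Hochberg adjusted p under 0.05 over the 10287 genes of a comparison was called; 19 comparisons were made. SE came from the F statistic. CPM use TMM-scaled library sizes. Depth was 1509219 to 4737736 counts per library. DESeq2 1.42.0 was a second tool, and the fit was tested on simulated data.

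The members, lists and tests were chosen with earlier results of these data known. From each list other than the members, at most 4 called genes per comparison with at least 10 CPM in the higher group, of largest change, could be named, and marker levels by range. Code position, with outer meaning row A or H or column 1 or 12, was read from the labels' descriptions. Replicate numbers were taken to pair libraries where every same-numbered correlation over 2000 genes exceeded 0.1. Pairs were found for 4PBA against medium and against LPS in either genotype, and in KO cells also for LPS and 4µ8C against medium and for 4µ8C against LPS (r 0.19 to 0.70). The labels call the libraries biological replicates without saying whether mice or cultures were separate, so p-values measure the spread between these libraries.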

Additional observations from a re-analysis of the deposited data

Results flagged for a closer look

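Each of the 9 genes was checked in each of the 9 groups, 81 groups of 5 libraries, for a library that stood apart by Dixon's ratio above 0.71, which chance gives in about 1 in 20 groups. A library was marked in 3 of them. C1qa was at 14.2 CPM in WT 4µ8C replicate 5, an outer library, and at 31.5 to 36.7 CPM in the other WT 4µ8C libraries. C3 was at 499 CPM in KO 4µ8C replicate 1, and at 779.9 to 854 CPM in the other KO 4µ8C libraries. Cfb was at 3908 CPM in WT medium replicate 1, and at 1620.0 to 2193 CPM in the other WT medium libraries.

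The C1qc response to 4PBA differed between the genotypes, by a log2 difference of -2.90 (KO change minus WT change, SE 0.75, edgeR adjusted p = 0.012). C1qc was lower with 4PBA than in medium in all 5 KO libraries and higher in 4 of 5 WT libraries than in any WT medium library. WT medium had outer codes and the other 3 groups inner codes, and with position as a term the difference was -0.80, adjusted p = 0.92.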

How the results depend on the processing

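Counted over members and comparisons, the genotype comparisons gave 6 calls, treatment against medium 32, inhibitor against LPS 10 and differences in response 1. With code position as a term the genotype calls were 3 and the response calls 0. With only the compared groups in the fit the response calls were 2, and with the replicate block 4. Leaving out 1 library at a time gave 5 to 8 genotype, 28 to 34 treatment, 8 to 11 inhibitor and 1 to 2 response calls, the 2 without WT medium replicate 4 or WT 4PBA replicate 3. Over 171 values per setting, RLE size factors changed 1 call, no filter on low counts 6, DESeq2 5, leaving out all KO replicates 4 changed 6, the position term 16 and leaving out Rn45s, the ribosomal RNA precursor, 0. The replicate block gained 22 calls and lost 4, and in comparisons whose numbers pair it changed no call beyond those given in the report. In the others, which share only a number, C1qb and Apoe were among those that moved: C1qb with LPS in WT cells was -0.78, adjusted p = 1.4e-05, and Apoe in KO against WT medium -0.94. The sign of C1qc in WT 4PBA against medium turned to -0.68 with the position term, and in WT 4µ8C against medium to -1.56 in outer libraries alone, an alternative chosen after the data were seen; the cause was not tested. C1qc, at 7 to 283 counts a library, and C1qa, at 13 to 301, rest on the fewest counts.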
